A study of Mus musculus with 15 samples.

Results

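Tumours lacking Rb, p53 and p130 were set against normal mouse lung on whole-genome Affymetrix arrays, in a series made to compare a mouse form of small cell lung cancer with the human disease. Of the 15 arrays of the series, 5 were compared: 3 of Rb/p53/p130 tumours, labelled triple knockout (TKO in the plots) and numbered 11, 12 and 13, and 2 of normal lung. They were chosen by their sample labels. The tumours (p53 Δ/Δ in the labels, along with Rb Δ/Δ and p130 Δ/Δ) were dissected from lungs 6 months after nasal instillation of an adenovirus expressing Cre recombinase, an enzyme that cuts out marked stretches of DNA in the cells the virus enters. The lungs came from adult mice without tumours, given as wild-type. The promoter that drove Cre, the strain, the sex and the cell of origin are not given in the sources used here, and a dissected tumour also holds the vessels, stroma and immune cells that grew in it. The other 10 arrays were Rb/p53 tumours (p53 Δ/Δ with Rb Δ/Δ), in which the virus had acted for 8 to 12 months. They entered the same statistical fit as the 5 compared, so the spread behind the p-values rests in part on them. Nothing in the labels ties the arrays to separate mice, so the spread behind the p-values is that between these samples. The 2 lungs differed in sex-linked transcripts, as given below, and so were not repeats of the same animal. Among tumours of the same genotype the spread may be technical.

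Small cell lung cancer is an aggressive tumour of neuroendocrine type: its cells resemble the rare airway cells that sense stimuli and release peptides and amines from dense core granules. Loss of Rb and p53 is its usual genetic background in people. Rb, p107 (Rbl1) and p130 (Rbl2) are the pocket proteins, which hold E2F transcription factors in check. In resting cells p130 is a subunit of the DREAM complex, which binds promoters of cell cycle genes at E2F sites or at the CHR element (cell cycle genes homology region) and keeps them silent, and cyclin D with Cdk4 or Cdk6 phosphorylates the pocket proteins to end that silence.

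The values are log2 expression levels of probe sets, and each of 18193 genes was read from its brightest probe set. A difference of 1 on this scale is a change of 2-fold, and differences are tumour minus lung with the standard error of limma's fit. A gene was called where its limma p-value, adjusted over 45037 probe sets, was under 0.05. Where the mean of the lower group lay at or under 5.05, the highest lower quartile among the arrays, its arrays under that level were set to it before averaging and the fold is given as a lower bound. Log2 differences are the fitted values, which for such genes are no bound. Levels of different probe sets are not compared.

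Properties of the arrays that run alongside the groups come first. The 2 lungs correlated at r = 0.983 across probe sets and the tumours at r = 0.986 to 0.991, against r = 0.884 to 0.898 between tumours and lungs. The Gapdh control probe sets from the 3' and 5' ends of the transcript differed by -0.03 to 0.08 in the tumours and by 0.72 and 0.88 in the lungs, and the actin controls by 0.81 to 1.01 in the tumours and 1.33 and 1.99 in the lungs. Both lungs thus lay above all 3 tumours in these signs of shortened RNA, and RNA length and tissue cannot be told apart. Tumour 12 had a mean of 8.84 over 27 hepatocyte genes, where tumours 11 and 13 had 6.06 and 5.91 and the lungs 5.98 and 5.96. Xist, transcribed from the inactive X chromosome, read 13.69, 13.60 and 13.65 in the tumours and 6.77 and 13.22 in the lungs, while the Y-linked Eif2s3y read 3.82, 3.73 and 4.03 in the tumours and 10.14 and 3.80 in the lungs, so lung 1 differed from the other 4 arrays in sex-linked transcripts.

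The comparison called 5622 genes (30.9% of those measured), of which 2775 (15.3%) were higher and 2847 (15.6%) lower in the tumours. The arrays of the groups did not overlap for 12007 genes (66%), and 3805 of the called genes changed at least 2-fold. Without tumour 12 the calls numbered 4487 (24.7%), and with the Gapdh difference as a covariate 940 (5.17%). With so many genes called, the counts below are read against these shares. Where a list is given with 0 calls in 1 direction, limma's unadjusted p under 0.05 added 1 gene in the club cell list and 1 in the fibroblast list in that direction, and 0 in the others. Over 38 lists of pathways and cell types, the members of mitosis, DNA replication and dense core granules had the highest median differences, and those of cardiac muscle, endothelium and alveolar type 1 cells the lowest. In bulk tissue, fewer cells of a type and less RNA per cell cannot be told apart.

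**Figure D1:**
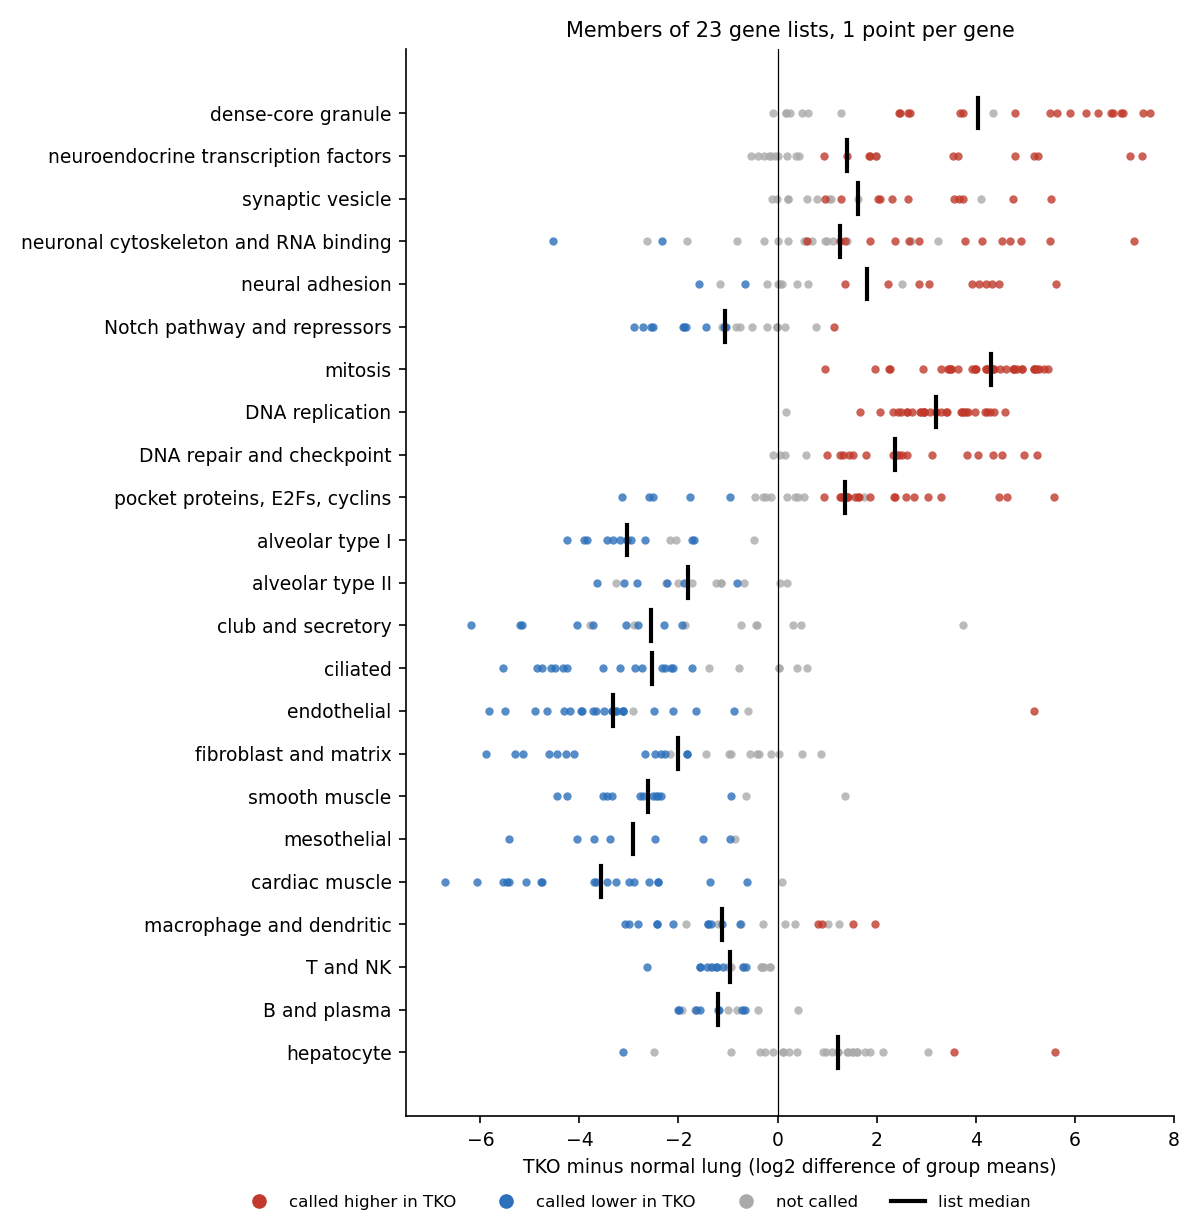
Each point is a gene, placed by its log2 difference, Rb/p53/p130 tumours minus normal lung, for the members of 23 lists. Red points were called higher, blue points called lower and grey points not called, and black bars are list medians. The mitosis list has its median at 4.30 with 37 of 37 members red, and the cardiac muscle list has its median at -3.56.

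Of the targeted genes, Rb1 read 11.71, 11.89 and 11.67 in the tumours and 10.05 and 10.34 in the lungs, a difference of 1.56 ± 0.31 (adjusted p = 0.00192), on the brighter of its 2 probe sets, and the other was not called. Rbl2, which encodes p130, read 8.39, 8.61 and 8.82 in the tumours and 9.56 and 9.58 in the lungs, a difference of -0.96 ± 0.32 (adjusted p = 0.0391, and 0.0835 without tumour 12), also on 1 of 2 probe sets. Rb1 was thus higher and Rbl2 lower in every tumour than in both lungs. Whether their probes fall inside the deleted exons is not known from the sources used here, and they therefore check neither deletion. The p53 gene was not analysed here. Rbl1, the remaining pocket protein and itself an E2F target, rose to 10.43, 10.27 and 10.28 in the tumours, against 8.92 and 8.91 in the lungs (adjusted p = 0.000642). That was its brightest probe set, and its others, at 1.18, 0.16 and -0.07, were not called.

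Within the list of pocket proteins, E2F factors, cyclins and their inhibitors, 21 of 35 genes were called higher and 5 lower. Without either lung 3 were called lower. The cyclins split by the phase they serve. Ccnd2, a D cyclin that drives phosphorylation of pocket proteins in G1, read 8.51, 8.21 and 8.19 in the tumours and 11.36 and 11.52 in the lungs, lower by 3.13 ± 0.37 (adjusted p = 1.73e-05), and all 7 of its probe sets were called lower. Ccnd1 fell to 8.90, 8.72 and 8.79 in the tumours, against 11.38 and 11.41 in the lungs, and Ccnd3 differed by -1.77 ± 0.46 (adjusted p = 0.0107). Cdk6, a kinase partner of D cyclins, read 7.57, 7.21 and 7.29 in the tumours and 9.77 and 9.99 in the lungs (adjusted p = 0.000121). All 3 D cyclins and Cdk6 therefore fell, with every tumour below both lungs, whereas Cdk4, the other kinase of the pair, was higher by 1.65 ± 0.39 (adjusted p = 0.00541, but -0.06 with the Gapdh covariate).

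Ccne2, an E cyclin that starts S phase with Cdk2, went the other way: it read 11.92, 11.76 and 11.53 in the tumours and 5.92 and 6.39 in the lungs, a 47.9-fold rise (difference 5.58 ± 0.35, adjusted p = 4.87e-08). Ccne1 rose by 1.40 ± 0.36 (adjusted p = 0.00958) and Cdk2 by 1.62 ± 0.29 (adjusted p = 0.000782, but -0.26 on its other probe set). The E2F factors differed among themselves. E2f8, a repressor that E2F itself induces, read 11.22, 10.95 and 10.75 in the tumours and 6.45 and 6.22 in the lungs (25.0-fold, adjusted p = 6.58e-06), and its partner E2f7 rose 22.3-fold. The activators E2f2 and E2f3 rose by 2.37 ± 0.65 and 1.26 ± 0.35, while E2f1, at 9.11, 9.16 and 8.97 in the tumours and 7.56 and 7.09 in the lungs, had an adjusted p of 0.0666. E2f4, E2f5 and E2f6 were not called (differences -0.14, 0.41 and 0.54).

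Several inhibitors of the same kinases also rose. Cdkn2a, which stood not in this list but in that of small cell lung cancer, and whose overlapping reading frames encode an inhibitor of Cdk4 and Cdk6 and an antagonist of Mdm2, read 11.35, 11.65 and 11.18 in the tumours and 5.55 and 6.00 in the lungs, a 49.0-fold rise (difference 5.62 ± 0.33, adjusted p = 2.42e-08). Cdkn2c rose to 12.32, 12.91 and 12.42 in the tumours, against 9.76 and 10.16 in the lungs (adjusted p = 0.00183), and Cdkn2d by 2.35 ± 0.28. Cdkn1a and Cdkn1b rose by 1.32 ± 0.29 and 0.94 ± 0.30. Not every member of the family did so: Cdkn2b and Cdkn1c differed by -0.24 and -0.46 and were not called. Under the Gapdh covariate 6 of the 35 genes were called higher and 0 lower (13 and 1 at an unadjusted p under 0.05), among them Ccne2 (adjusted p = 0.000858) and E2f8 (adjusted p = 0.00851) but not Ccnd2 (adjusted p = 0.124).

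**Figure D2:**
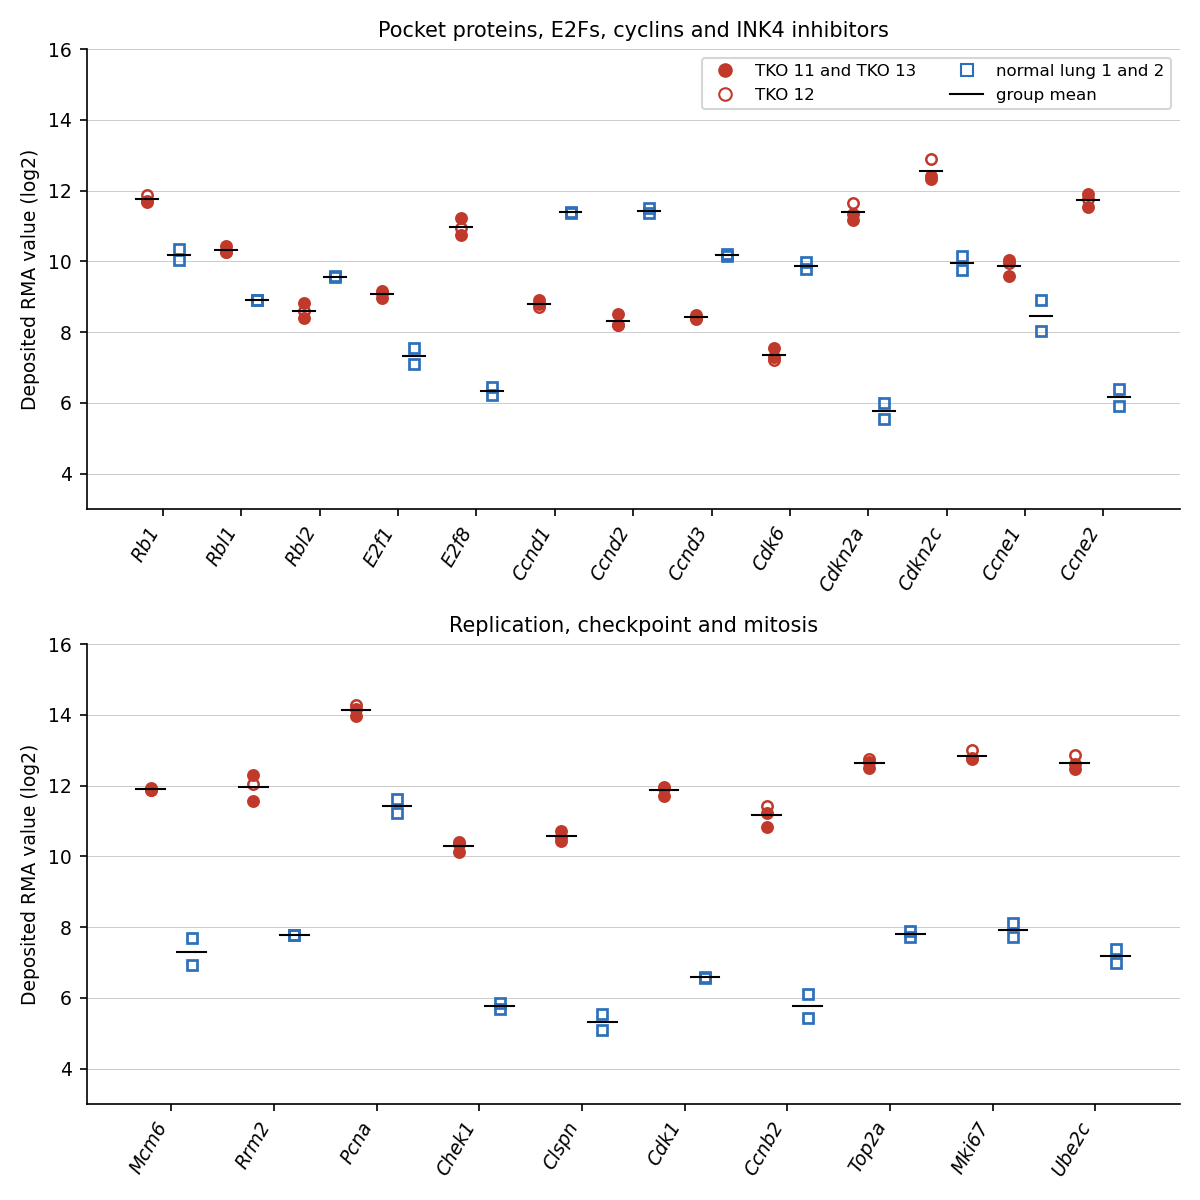
Log2 levels by array for genes of the Rb pathway (upper panel) and of DNA replication, checkpoint and mitosis (lower panel). Red circles are Rb/p53/p130 tumours, with tumour 12 open, blue open squares are normal lungs, and black lines are group means. For Ccnd1, Ccnd2, Ccnd3 and Cdk6 the tumours lie below the lungs, and for Ccne2, E2f8 and all genes of replication, checkpoint and mitosis they lie higher than the lungs.

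DNA replication genes rose almost as a block: 30 of 31 were called higher and 0 lower, with a median difference of 3.20, where 15.3% of all genes were called higher. Mcm6, a subunit of the replicative helicase, read 11.88, 11.93 and 11.89 in the tumours and 6.92 and 7.69 in the lungs, a 24.2-fold rise (difference 4.60 ± 0.25, adjusted p = 1.44e-08). Hells, a chromatin remodeller, read 11.06, 11.01 and 10.73 in the tumours and 6.59 and 6.54 in the lungs (20.7-fold), and Rrm2, a subunit of ribonucleotide reductase, 12.31, 12.04 and 11.55 in the tumours and 7.77 and 7.76 in the lungs. Uhrf1, which guides maintenance of DNA methylation, and Prim1, a primase subunit, rose by 4.29 ± 0.45 and 4.22 ± 0.31. The sliding clamp Pcna, already high in the lungs at 11.24 and 11.61, reached 14.17, 14.27 and 13.96 in the tumours. In all of these the tumours lay within 0.76 of each other and well above both lungs. The smallest called rise was that of Fen1 (1.67 ± 0.29), and Orc1, at a difference of 0.16 ± 0.19, was the member not called. The list gave 27 calls with the Gapdh covariate and 30 without tumour 12.

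Mitotic genes rose without exception among those measured: 37 of 37 were called higher, with a median difference of 4.30 and a range of 0.96 (Bub3) to 5.46 (Ube2c). Ube2c, the ubiquitin-conjugating enzyme of the anaphase-promoting complex, read 12.60, 12.85 and 12.47 in the tumours and 6.98 and 7.38 in the lungs, a 44.1-fold rise (difference 5.46 ± 0.33, adjusted p = 3.25e-08). Ccnb2, a B cyclin, read 11.22, 11.42 and 10.84 in the tumours and 5.44 and 6.10 in the lungs (41.9-fold, adjusted p = 5.39e-08). Its kinase partner Cdk1 read 11.93, 11.97 and 11.71 in the tumours and 6.59 and 6.57 in the lungs (39.1-fold, adjusted p = 1.56e-09). In each of these genes the 3 tumours lay within 0.58 of each other, far above both lungs. Ttk, a spindle checkpoint kinase, and Ncapg of condensin were at least 23.5-fold and at least 17.1-fold higher, and the kinetochore protein Cenpf and the midzone protein Prc1 rose by 5.19 ± 0.49 and 4.93 ± 0.21. Mki67, the proliferation marker Ki-67, read 12.75, 13.00 and 12.78 in the tumours and 7.71 and 8.12 in the lungs. The DNA topoisomerase Top2a rose 28.7-fold on its brightest probe set, although another of its probe sets was called lower. The Gapdh covariate left 25 of the 37 called higher, and without tumour 12 all 37 were.

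The promoters of the mitosis and replication lists were searched for the elements that DREAM, E2F and NF-Y are known to bind. List members were searched whether or not they were called, so the shares describe the lists. The replication list was labelled by E2F when compiled, so its richness in E2F sites is no independent result. Orc1, the replication gene not called, also held an E2F site, at -27 from the start. A link between the elements and the changes was not tested. RefSeq promoters of build GRCm38.p6, reaching from 250 bases before to 50 bases after the transcription start, were at hand for 30 of the 37 mitotic genes, 27 of the 31 replication genes and 14452 of all 18193 genes. The stretches shown, 120 bases each on the gene's strand and 5′ to 3′, are from the 3 mitotic genes described above and from 3 replication genes that hold an E2F site. In Ube2c (chr2:164769823-164769942, + strand), Ccnb2 (chr9:70421530-70421649, − strand) and Cdk1 (chr10:69352888-69353007, − strand), capitals mark the CHR element, TTTGAA or its reverse complement TTCAAA, and CCAAT or its reverse complement ATTGG. In Mcm6 (chr1:128359709-128359828, − strand), Hells (chr19:38930852-38930971, + strand) and Cdc6 (chr11:98907937-98908056, + strand), capitals mark E2F sites. The first E2F run of Mcm6 joins a pair of overlapping matches on opposite strands.
Ube2c: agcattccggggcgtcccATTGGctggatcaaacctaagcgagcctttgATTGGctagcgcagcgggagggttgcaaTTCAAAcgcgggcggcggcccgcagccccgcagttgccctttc
Ccnb2: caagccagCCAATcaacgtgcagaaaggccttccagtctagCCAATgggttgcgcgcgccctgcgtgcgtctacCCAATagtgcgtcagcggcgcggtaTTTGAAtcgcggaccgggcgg
Cdk1: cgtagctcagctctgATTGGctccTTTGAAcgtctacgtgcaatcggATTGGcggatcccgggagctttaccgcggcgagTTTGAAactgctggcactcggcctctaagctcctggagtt
Mcm6: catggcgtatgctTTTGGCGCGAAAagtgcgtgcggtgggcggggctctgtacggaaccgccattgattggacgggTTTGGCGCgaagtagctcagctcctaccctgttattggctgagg
Hells: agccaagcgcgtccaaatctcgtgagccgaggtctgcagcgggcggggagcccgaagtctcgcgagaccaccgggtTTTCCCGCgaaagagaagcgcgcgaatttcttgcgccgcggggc
Cdc6: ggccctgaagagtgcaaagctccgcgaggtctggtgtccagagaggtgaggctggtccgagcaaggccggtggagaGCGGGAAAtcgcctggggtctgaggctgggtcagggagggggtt

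The elements divided the lists. The CHR element (TTTGAA or TTCGAA on either strand) was in 25 of 30 mitotic promoters (83.3%), 5 of 27 replication promoters (18.5%) and 15% of all promoters. E2F sites (TTTCCCGC, TTTGGCGC or TTTCGCGC on either strand) were in 3 mitotic promoters (10%), 11 replication promoters (40.7%) and 2.92% of all promoters. CCAAT, the NF-Y box, was in 80% of mitotic, 59.3% of replication and 38.2% of all promoters. Both CHR and CCAAT stood in 22 mitotic promoters (73.3%), 4 replication promoters (14.8%) and 6.13% of all. The 36 CHR matches in mitotic promoters had their median at -18.5 relative to the start, and 23 lay within 50 bases of it. Their 53 CCAAT matches lay further out, with the median at -78, and the 17 E2F matches of replication promoters had theirs at -47. A match says only that these letters stand in the window, and binding was not measured.

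**Figure D3:**
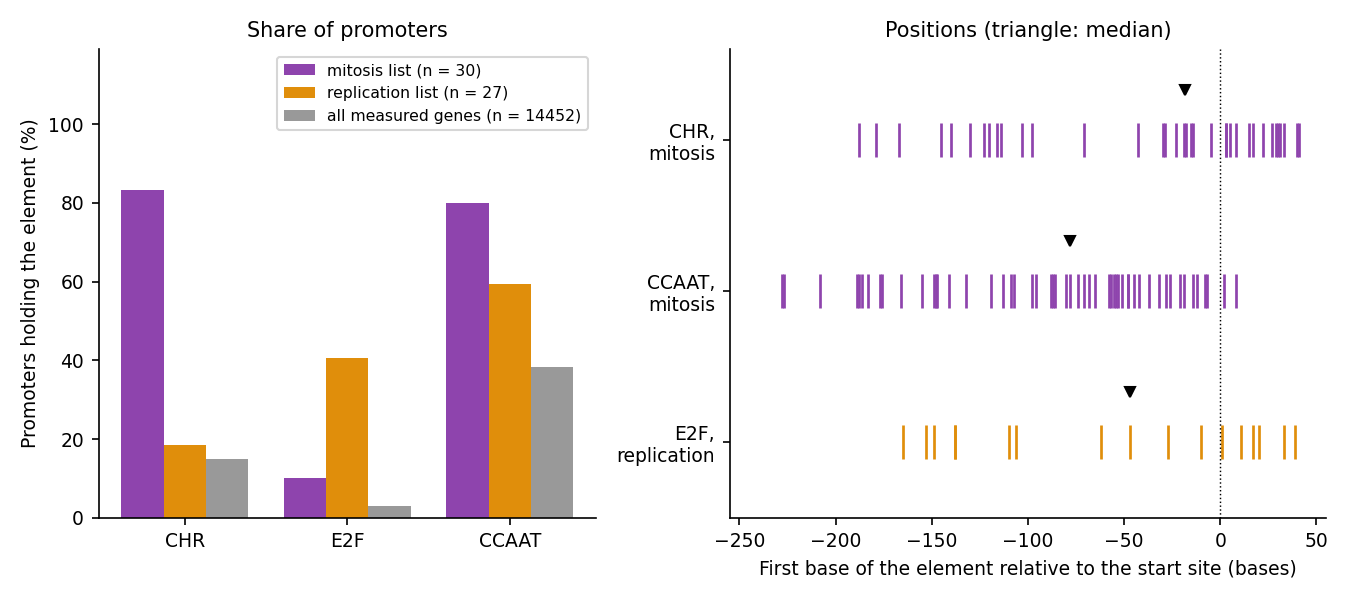
Left, the share of promoters that hold the CHR element, an E2F site or CCAAT, for the mitosis list (30 promoters), the replication list (27) and all measured genes (14452). Right, the position of each match relative to the transcription start in bases, with triangles at the medians. CHR is most frequent in mitotic and E2F in replication promoters, and mitotic CHR matches cluster near the start.

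Genes of the DNA damage response followed replication, with 18 of 22 called higher and 0 lower. Clspn, an adaptor that activates the checkpoint kinase Chek1 at stalled forks, read 10.72, 10.56 and 10.43 in the tumours and 5.55 and 5.10 in the lungs, a 37.9-fold rise (adjusted p = 1.84e-07). Chek1 itself read 10.35, 10.41 and 10.13 in the tumours and 5.86 and 5.69 in the lungs (log2 difference 4.52 ± 0.26). Brca1 of homologous recombination rose by 4.05 ± 0.30, and Rad51ap1 of the same pathway and the exonuclease Exo1 were at least 22.3-fold and at least 15.6-fold higher. All tumours lay above both lungs for these 5 genes. Chek2, Atr, Fanca and Fancb were not called. Fitted with the Gapdh covariate, 11 of the 22 were called.

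Known targets of p53 did not move as a block. Of 23 measured, 2 were called higher and 6 lower, where 15.3% and 15.6% of all genes were. Fas, a death receptor, read 6.03, 6.49 and 6.47 in the tumours and 8.68 and 9.56 in the lungs, lower 6.95-fold (adjusted p = 3.76e-05), and Pmaip1, which encodes the pro-apoptotic Noxa, was lower 5.87-fold. Plk2, Ccng1, Phlda3 and Sesn1 differed by -1.41, -1.29, -0.95 and -0.90 and were also called lower, but the list gave 3 lower calls in all without tumour 12 or either lung. Against them stood Cdkn1a and the stress gene Ddit4 (0.87 ± 0.23, adjusted p = 0.0121). Without tumour 13 the list gave 1 higher call. Mdm2, the ubiquitin ligase of p53, read 10.25, 10.21 and 10.22 in the tumours and 10.26 and 10.13 in the lungs.

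Among genes of chromatin, 15 of 22 were called higher and 1 lower. Ezh2, the methyltransferase of Polycomb complex PRC2, read 11.23, 11.10 and 11.06 in the tumours and 8.16 and 7.99 in the lungs, an 8.33-fold rise (adjusted p = 0.000106). Its relative Ezh1 was the member that fell (-0.92 ± 0.23, adjusted p = 0.00917, and 0.0846 without lung 1). That call rests on its brightest probe set, and its others, at -0.05, -0.15 and -0.07, were not called. Hmgb2 and Hmgb3, DNA-bending proteins, and the maintenance methyltransferase Dnmt1 rose by 3.17 ± 0.34, 2.52 ± 0.33 and 2.39 ± 0.21. The Gapdh covariate left 1 call among the 22, with 9 higher at an unadjusted p under 0.05 and a median of 1.11, against 1.22 without it.

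Neuroendocrine transcription factors rose in part. Of 23 measured, 12 were called higher and 0 lower, with a median difference of 1.40. Insm1, a zinc finger repressor that endocrine and neuroendocrine cells need to form, read 11.70, 11.81 and 12.01 in the tumours and 4.40 and 4.58 in the lungs, at least 111-fold higher (difference 7.35 ± 0.47, adjusted p = 5.65e-08). St18, a zinc finger factor of the Myt1 family, read 11.10, 11.30 and 11.15 in the tumours and 3.98 and 4.16 in the lungs, at least 70.5-fold higher (adjusted p = 1.27e-09). The tumours lay within 0.31 of each other for both genes, and the lungs were at the floor. Prox1, a homeobox factor of neural, hepatic and lymphatic cells, read 9.91, 9.52 and 9.86 in the tumours and 4.57 and 4.58 in the lungs (at least 26.2-fold). Lhx2, a LIM homeobox factor, read 8.50, 8.15 and 8.27 in the tumours and 3.60 and 3.44 in the lungs (at least 9.58-fold).

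Neurog3, known for specifying the endocrine cells of pancreas and gut, read 10.12, 10.77 and 10.38 in the tumours and 5.41 and 4.90 in the lungs, a 38.5-fold rise (difference 5.27 ± 1.57, adjusted p = 0.0232). Its call was lost without tumour 12 (adjusted p = 0.0623), although tumours 11 and 13 both lay above the lungs. In the Rb/p53 tumours, which share the fit, it ran from 6.00 to 12.44 (median 10.61). Myt1 rose by 3.64 ± 0.32 and Onecut2 was at least 9.11-fold higher, and the progenitor factors Sox2, Foxa1 and Foxa2 rose by 1.87 ± 0.52, 1.84 ± 0.50 and 1.40 ± 0.28. Neurod1, a factor of another subtype of human small cell lung cancer, read 4.42, 3.89 and 3.96 in the tumours and 4.36 and 4.38 in the lungs, at the floor in all 5 arrays. Nkx2-1, the lung lineage factor, read 6.47, 6.59 and 6.66 in the tumours and 6.23 and 6.55 in the lungs and was not called. In the fit with the Gapdh covariate, 5 of the 23 were called.

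**Figure D4:**
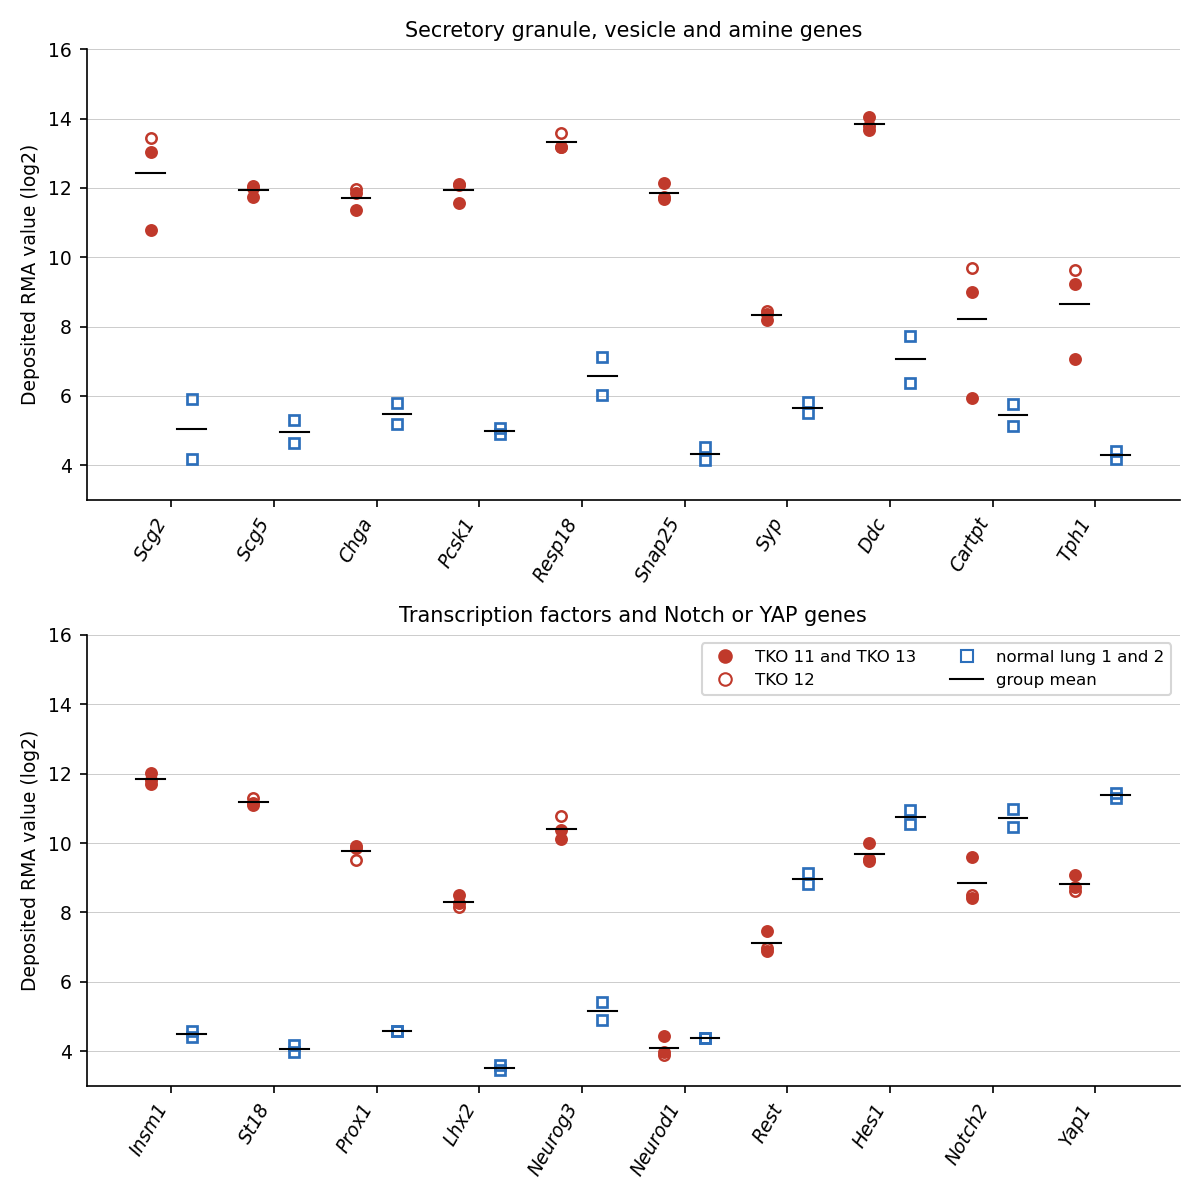
Log2 levels by array for genes of dense core granules and amine synthesis (upper panel) and for transcription factors and Notch and YAP genes (lower panel). Red circles are Rb/p53/p130 tumours, with tumour 12 open, blue open squares are normal lungs, and black lines are group means. Snap25, Insm1 and St18 lie at 11 to 12.2 in the tumours and below 5 in the lungs, while Rest, Notch2 and Yap1 lie lower in the tumours.

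The machinery of dense core granules rose with these factors: 18 of 26 genes were called higher and 0 lower, with a median difference of 4.05. Among the granins, the bulk proteins of the granule, Chga read 11.85, 11.96 and 11.37 in the tumours and 5.19 and 5.80 in the lungs, a 75.0-fold rise (adjusted p = 2.62e-06), and Chgb and Scg3 rose 88.2-fold and 59.5-fold. Scg2 read 13.03, 13.44 and 10.78 in the tumours and 4.18 and 5.92 in the lungs, at least 123-fold higher (adjusted p = 0.000108). Scg3 was the most even of these, with the tumours within 0.12 of each other, whereas Scg2 was over 2 lower in tumour 13 than in the other 2 tumours.

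Enzymes that process prohormones rose as well. Pcsk1, the prohormone convertase, read 11.57, 12.12 and 12.10 in the tumours and 4.91 and 5.09 in the lungs (at least 116-fold higher, adjusted p = 1.57e-07). Scg5, a chaperone of the related convertase Pcsk2, read 11.75, 12.06 and 12.01 in the tumours and 4.63 and 5.30 in the lungs (at least 109-fold higher, adjusted p = 1.97e-07). Carboxypeptidase E (Cpe) was high already in the lungs at 10.96 and 10.91, and reached 13.36, 13.62 and 13.22 in the tumours (adjusted p = 1.55e-06). Resp18, an endocrine secretory protein, read 13.19, 13.58 and 13.17 in the tumours and 6.03 and 7.12 in the lungs (106-fold, adjusted p = 5.65e-05).

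For amines, Ddc, the decarboxylase that makes dopamine and serotonin, read 13.68, 13.80 and 14.04 in the tumours and 6.39 and 7.74 in the lungs, a 109-fold rise (difference 6.77 ± 0.32, adjusted p = 5.11e-09). Tph1, the rate-limiting enzyme of serotonin synthesis, read 9.24, 9.64 and 7.05 in the tumours and 4.42 and 4.17 in the lungs and had an adjusted p of 0.0679. Tumour 13 lay over 2 below the other tumours in Tph1, as it did in Scg2. The vesicular monoamine transporter Slc18a1 rose by 3.75 ± 0.80, while Slc18a2, Th and Dbh, of the catecholamine route, were not called. Of peptides, Vgf rose by 3.68 ± 0.73, whereas gastrin-releasing peptide, Grp, overlapped between groups at 8.09, 6.01 and 7.48 in the tumours and 6.56 and 5.25 in the lungs. Snap25, a SNARE protein of exocytosis, was at 11.68, 11.74 and 12.15 in the tumours and 4.15 and 4.53 in the lungs (at least 112-fold higher, adjusted p = 4.54e-09). The list gave 9 calls with the Gapdh covariate and 16 without tumour 12.

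Synaptic vesicle genes were called higher in 11 of 21 cases and lower in 0. Cplx2, a complexin that clamps vesicle fusion, read 12.81, 13.07 and 13.19 in the tumours and 8.25 and 8.29 in the lungs, a 27.0-fold rise (adjusted p = 9.46e-10). Syt1, the calcium sensor of release, rose 46.1-fold, and Syp, a vesicle membrane protein used as a marker in pathology, read 8.35, 8.44 and 8.21 in the tumours and 5.82 and 5.50 in the lungs (6.38-fold, adjusted p = 5.57e-05). The active-zone and vesicle proteins Rab3b, Rab3c and Rims2 rose by 3.66 ± 0.54, 3.74 ± 0.57 and 3.56 ± 0.29. Vamp2 and Rab3a, parts of the same machinery, were not called and differed by 0.20 and 0.20.

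Neuronal cytoskeleton and RNA-binding genes were called higher in 14 of 31 cases and lower in 2. Elavl2, a neuronal RNA-binding protein, read 11.63, 11.57 and 11.09 in the tumours and 4.25 and 4.23 in the lungs (at least 83.4-fold higher, adjusted p = 0.0022), and Elavl4 rose by 4.92 ± 0.50. The stathmins went opposite ways. Stmn3 rose 45.0-fold, while Stmn2 read 5.90, 5.98 and 5.13 in the tumours and 9.86 and 10.53 in the lungs (difference -4.53 ± 1.50, adjusted p = 0.0389, and 0.0727 without tumour 12). The tubulin-binding protein tau, Mapt, was also lower (-2.33 ± 0.73, adjusted p = 0.0286, and 0.0736 without tumour 12). Neither call was kept when any 1 array was left out.

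Neural adhesion and guidance genes were called higher in 10 of 20 cases and lower in 2. Ncam1, the adhesion molecule CD56 used to diagnose neuroendocrine tumours, read 10.75, 10.68 and 10.63 in the tumours and 6.11 and 6.59 in the lungs, a 20.2-fold rise (adjusted p = 1.41e-07). Dscaml1, an adhesion molecule of neurons, read 9.43, 9.85 and 9.81 in the tumours and 4.06 and 4.09 in the lungs (at least 25.1-fold higher). N-cadherin (Cdh2) and the guidance receptor Robo1 rose by 4.07 ± 0.34 and 3.92 ± 0.63. Every tumour stood above both lungs for these 4 genes. The netrin receptor Unc5c and the ephrin receptor Epha7 were lower (-1.58 ± 0.33 and -0.66 ± 0.16), and the list gave 1 lower call without lung 2. The synaptic, cytoskeletal and adhesion lists gave 3, 6 and 3 higher calls with the Gapdh covariate.

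Of a list of 23 genes linked to small cell lung cancer, 11 were called higher and 2 lower. It holds Cdkn2a, Ezh2, Dnmt1, Hmgb2 and Hmgb3, given above. Ret, a receptor tyrosine kinase of neuroendocrine cells, read 11.38, 11.28 and 11.06 in the tumours and 5.59 and 5.97 in the lungs, a 44.1-fold rise (adjusted p = 1.98e-08). Dll3, an inhibitory Notch ligand, read 9.85, 9.78 and 9.10 in the tumours and 5.25 and 4.86 in the lungs (22.9-fold, adjusted p = 1.22e-07), and Gfi1, a zinc finger repressor, rose 23.6-fold. Outside the list, Klk1, a kallikrein protease chosen for its large difference, read 12.07, 11.90 and 13.96 in the tumours and 5.03 and 5.82 in the lungs (149-fold, adjusted p = 0.00262), with tumour 13 the highest. Its probe set carries the suffix _x, given to probes that related genes may share. Of its 4 probe sets, 1 without the suffix differed by 7.75 (limma adjusted p = 0.00291). The others with the suffix differed by 1.19 (limma adjusted p = 0.0308) and 0.20 (not called).

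Of Mycl, Mycn and Myc, only Mycl was called. Mycl read 12.46, 10.86 and 11.82 in the tumours and 8.76 and 8.55 in the lungs, an 8.32-fold rise (difference 3.06 ± 0.99, adjusted p = 0.0343). Its other probe sets differed by 2.35 and 2.77 and were not called (limma adjusted p = 0.072 and 0.097). Mycn read 7.76, 7.73 and 7.77 in the tumours and 6.19 and 6.21 in the lungs, each tumour above both lungs, but its adjusted p was 0.44 in a fit whose Rb/p53 tumours ran from 6.11 to 12.19 (median 7.38). Myc read 7.95, 8.16 and 8.04 in the tumours and 7.74 and 7.77 in the lungs and was not called. Nfib, a factor often amplified in mouse small cell lung cancer, overlapped between the groups at 11.30, 11.44 and 11.88 in the tumours and 11.59 and 11.72 in the lungs. Aldh1a1, an aldehyde dehydrogenase, and the RNA-binding protein Igf2bp3 were the members that fell (-2.29 ± 0.56 and -0.33 ± 0.12, adjusted p = 0.00702 and 0.0499). The list gave at most 1 lower call when any 1 array was left out, and with the Gapdh covariate the list held 5 higher and 0 lower limma calls (11 and 0 at an unadjusted p under 0.05). Tuft cell genes, markers of a further human subtype, gave 1 higher call (Ascl2, which turned to -0.36 on another of its probe sets) and 2 lower calls (Ltc4s and Alox5) among 10, but no higher call without tumour 12, tumour 13 or lung 1 (2 at an unadjusted p under 0.05 with all arrays in limma) and 1 lower call without lung 2. The defining factor Pou2f3 read 6.84, 6.65 and 6.80 in the tumours and 6.77 and 7.10 in the lungs.

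Notch receptors, YAP and the neuronal repressor Rest were lower in the tumours. Of 22 genes of this list 1 was called higher and 10 lower, with a median difference of -1.05. Notch1 read 8.55, 8.49 and 9.18 in the tumours and 11.48 and 11.42 in the lungs (adjusted p = 0.000325), and Notch4, the receptor of endothelial cells, 7.47, 7.37 and 7.04 in the tumours and 9.90 and 10.51 in the lungs (adjusted p = 6.93e-06). Notch2 and Notch3 differed by -1.89 ± 0.43 and -2.52 ± 0.31, so all 4 receptors fell. Yap1, the co-activator held back by Hippo signalling, read 8.74, 8.63 and 9.08 in the tumours and 11.29 and 11.46 in the lungs, lower 5.88-fold (adjusted p = 0.00314), and its relative Wwtr1 differed by -1.91 ± 0.44. Rest, which silences neuronal genes in other cells, read 6.89, 6.99 and 7.46 in the tumours and 8.81 and 9.13 in the lungs, lower 3.62-fold (adjusted p = 0.00379).

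The Notch effector Hes1 read 9.55, 9.48 and 10.00 in the tumours and 10.94 and 10.54 in the lungs and was not called (adjusted p = 0.12). Ligands did not share a direction: Jag1 fell (-1.45 ± 0.51, adjusted p = 0.0479), Jag2 rose to 9.31, 9.21 and 8.96 in the tumours, against 8.15 and 7.90 in the lungs (adjusted p = 0.00499, but -0.26 with the Gapdh covariate, and adjusted p = 0.056 without lung 2), and Dll1 differed by 0.14. Endothelial and mesenchymal cells also express Notch receptors, Yap1 and Wwtr1, and markers of those cells fell in the same arrays, as given next, and their part in this result was not tested. Only 1 gene of the list was called lower under the Gapdh covariate (4 at limma's unadjusted p under 0.05).

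Some markers of normal lung cells fell in every compartment. In alveolar type 1 cells, the flat cells of gas exchange, 12 of 15 markers were called lower and 0 higher, with a median of -3.04. Hopx, a homeodomain protein of these cells, read 10.66, 10.89 and 10.72 in the tumours and 14.03 and 14.36 in the lungs (difference -3.44 ± 0.76), and the receptor Ager 11.81, 11.84 and 11.48 in the tumours and 14.62 and 14.73 in the lungs (adjusted p = 0.0253). Akap5 was lower 19.0-fold. In type 2 cells, which make surfactant, 6 of 16 markers were called lower. Surfactant protein Sftpc read 13.65, 13.65 and 12.13 in the tumours and 14.90 and 14.86 in the lungs and was not called (adjusted p = 0.191), while Sftpa1 fell to 10.98, 11.44 and 9.79 in the tumours, against 14.22 and 14.54 in the lungs (adjusted p = 0.0493). Tumour 13 had the lowest reading of the 3 tumours for both surfactant genes. The lower calls of type 1 markers numbered 7 without lung 1 and 6 without lung 2, and those of type 2 markers 2 to 3 without any 1 array. With the Gapdh covariate neither alveolar list held a limma call, and 3 type 1 and 2 type 2 markers were lower at an unadjusted p under 0.05.

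In the airway lists the defining secretory gene did not follow the rest. Scgb1a1, the abundant protein of club cells, read 14.46, 14.77 and 15.11 in the tumours and 15.20 and 15.19 in the lungs and was not called, close to the top of the scale in all arrays. Yet 9 of 18 club cell genes fell and 0 rose. Cyp1a1, a cytochrome P450, read 5.07, 4.74 and 4.91 in the tumours and 10.77 and 11.42 in the lungs, lower at least 65.9-fold (adjusted p = 9.8e-08), and Cyp2b10, Sult1d1 and Gsta3, further enzymes of xenobiotic metabolism, differed by -5.19 ± 0.84, -5.16 ± 0.65 and -4.05 ± 0.75. Upk3a, a uroplakin of a club cell subset, read 9.51, 10.17 and 10.68 in the tumours and 6.29 and 6.47 in the lungs and had an adjusted p of 0.0602. Of 22 genes of ciliated cells 16 fell and 0 rose. Rsph4a, of the radial spokes of motile cilia, read 4.26, 4.25 and 4.61 in the tumours and 10.17 and 9.65 in the lungs (lower at least 29.1-fold), and Foxj1, the factor that directs motile cilia, 6.63, 6.47 and 6.66 in the tumours and 10.40 and 9.83 in the lungs (lower 11.5-fold). The ciliated list gave 11 calls with the Gapdh covariate and 16 without tumour 12.

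Markers of vessels and stroma were lower too. Of 26 endothelial genes 23 were called lower and 1, Prox1, higher, with a median of -3.31. Car4, a carbonic anhydrase of lung capillaries, read 6.16, 6.51 and 5.67 in the tumours and 11.22 and 12.00 in the lungs, lower 45.2-fold, and Pecam1, the vascular marker CD31, 7.49, 7.40 and 7.19 in the tumours and 10.09 and 11.30 in the lungs (lower 10.1-fold). The angiopoietin receptor Tek and the junction proteins Cldn5 and Cdh5 differed by -4.90 ± 0.99, -4.66 ± 0.85 and -3.96 ± 0.56. Smooth muscle genes fell in 12 of 14 cases, with Cnn1 lower at least 20.9-fold and Myh11 lower by 4.25 on the log2 scale, and mesothelial genes in 7 of 8. Of 24 fibroblast and matrix genes 13 fell and 0 rose. The list was split: Pdgfra, a receptor of resident fibroblasts, and Inmt differed by -4.11 ± 0.65 and -4.61 ± 1.06, while Col1a1, at 8.82, 8.83 and 8.96 in the tumours and 9.51 and 8.48 in the lungs, Col1a2, Col3a1, Fn1 and Dcn were not called.

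Cardiac muscle genes, which lung tissue carries in the sleeves of its pulmonary veins, fell in 19 of 20 cases. Myh6, atrial myosin heavy chain, read 4.72, 4.07 and 6.39 in the tumours and 11.83 and 11.73 in the lungs, a fitted difference of -6.72 ± 0.95, with tumours 11 and 12 under the floor. Tumour 13 was higher than the other tumours in Myh6 but over 5 below both lungs. Fitted with the Gapdh covariate, the endothelial, smooth muscle, fibroblast, mesothelial and cardiac lists gave 3, 6, 3, 1 and 6 lower calls.

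Immune cells gave a mixed picture. Ptprc, the pan-leukocyte marker CD45, read 9.62, 9.15 and 9.41 in the tumours and 11.97 and 11.37 in the lungs (difference -2.27 ± 0.52, adjusted p = 0.00493). Of 23 macrophage and dendritic cell genes 11 fell and 4 rose. Marco, a scavenger receptor of alveolar macrophages, and Csf1r, the receptor for macrophage growth factor, differed by -3.09 ± 0.95 and -2.43 ± 0.51. In the other direction, the complement genes C1qb and C1qc, made by tissue macrophages, rose by 1.97 ± 0.52 and 1.52 ± 0.49, and Fcgr1 and Aif1 by 0.90 ± 0.30 and 0.82 ± 0.28. The other probe sets of C1qb (0.73 and 0.99) and of Fcgr1 (0.22) were not called. With the Gapdh covariate C1qb, C1qc and Aif1 turned to -0.12, -1.03 and -0.16, none of them called. C1qb read 10.75, 10.17 and 10.08 in the tumours and 7.49 and 9.23 in the lungs, and the list held 0 higher calls in limma without lung 1 and 1 without tumour 11 or 12. Its lower calls numbered 7 without tumour 13 or lung 1 and 5 without lung 2. T and NK cell genes fell in 10 of 20 cases and B cell genes in 8 of 16, and 0 rose in either, with Klrd1 of NK cells lower at least 4.77-fold and Cd79b of the B cell receptor at -1.98 ± 0.55. Without lung 2 the T and NK cell calls numbered 6 and the B cell calls 4, and without lung 1 the B cell calls 5. Platelet factor Ppbp fell to 4.87, 5.04 and 4.51 in the tumours, against 11.12 and 9.70 in the lungs. With the Gapdh covariate these lists held no limma call, and at an unadjusted p under 0.05 the macrophage list had 3 lower and 1 higher, the T and NK cell list 4 lower and the B cell list 3 lower.

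The 3 tumours were not alike in all genes, and here values are described without a test. Tumour 12 stood over 2 above both other tumours in 58 genes, of which 16 belong to the hepatocyte list. Others of the 58, such as Cyp2c29, Otc and Uox, are liver genes that the list does not hold. Albumin (Alb) read 6.16, 13.75 and 5.35 in the tumours and 5.42 and 5.34 in the lungs, and the apolipoprotein Apoa2 6.13, 11.34 and 5.95 in the tumours and 5.99 and 6.08 in the lungs. Serpina1c, an antitrypsin, and Cps1, which opens the urea cycle, likewise read 11.37 and 9.36 in tumour 12 and no more than 4.57 and 4.73 in the other tumours. Other hepatocyte genes stayed low in tumour 12: the factor Hnf4a read 6.20, 6.66 and 5.73 in the tumours and 6.73 and 5.83 in the lungs, and G6pc, Pck1 and Apob were at the floor. Among the Rb/p53 tumours, the mean over the hepatocyte list was 6.97 and 6.37 in numbers 2 and 10 and 5.68 to 6.14 in the rest. Alb ran from 5.05 to 9.73 (median 5.50) over the Rb/p53 tumours.

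A few genes of the hepatocyte list were called. Ttr, transthyretin, which endocrine cells also make, read 9.73, 12.01 and 10.55 in the tumours and 5.32 and 4.98 in the lungs (48.8-fold higher, adjusted p = 0.00416, and 0.0202 without tumour 12). Arg1, arginase, rose by 3.56 ± 0.77, and Asgr1, a lectin, fell to 4.51, 6.07 and 5.21 in the tumours, against 9.02 and 7.76 in the lungs. Fabp1, a fatty acid carrier, and the cytochrome Cyp2e1 depended on tumour 12: without it they were called lower, with differences of -2.27 and -4.15 (adjusted p = 0.000393 and 0.00012), and with it they were not called.

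Tumours 11 and 13 had departures of their own, in genes chosen after their values were seen. Car6, a secreted carbonic anhydrase, read 12.42 in tumour 11, 4.85 and 4.60 in the other tumours and 5.00 and 4.88 in the lungs. Tumour 13 stood over 2 below both other tumours in 30 genes and over 2 above in 16. Among those lower were 3 Hoxb genes, with Hoxb6 at 9.67, 9.68 and 6.51 in tumours 11, 12 and 13 and 7.04 and 6.86 in the lungs. Cartpt, a neuropeptide precursor, read 9.00, 9.69 and 5.94 in the tumours, and islet amyloid polypeptide, Iapp, 12.10, 12.30 and 9.63. The chemokine Cxcl13 read 13.29, 14.05 and 10.21 in the tumours and 8.21 and 8.11 in the lungs. Above the others, Slc15a2, a peptide transporter, read 6.64, 5.98 and 10.29 in the tumours and 10.70 and 10.16 in the lungs, so that tumour 13 lay between the 2 lungs.

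**Figure D5:**
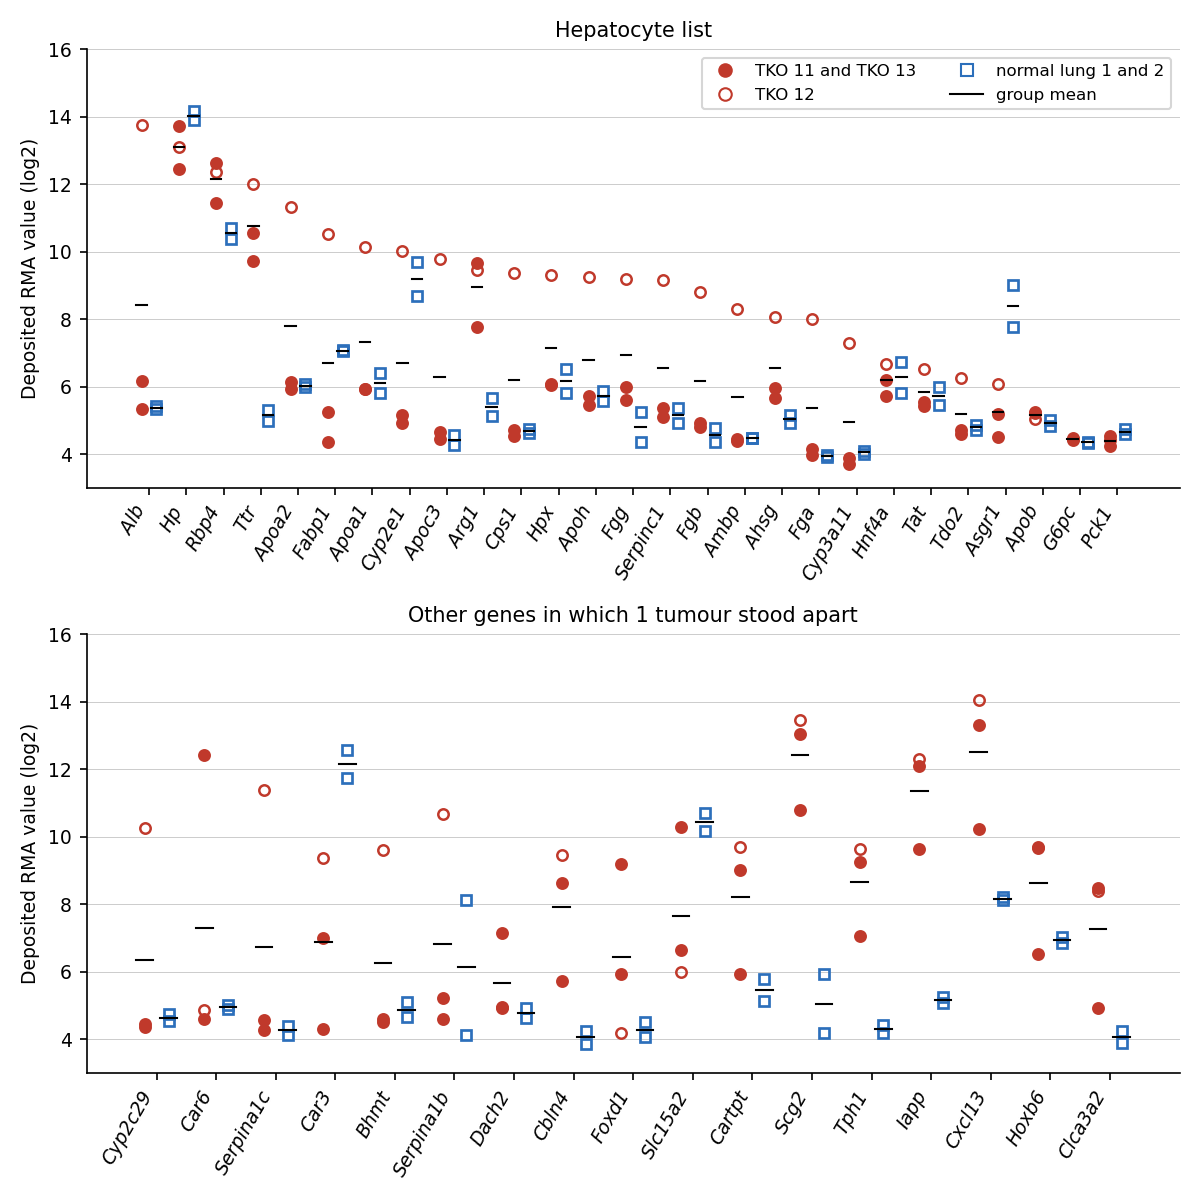
Log2 levels by array for the 27 hepatocyte genes (upper panel) and for genes outside that list in which 1 tumour stood apart (lower panel). Some genes of the lower panel, such as Cyp2c29, are also liver genes. Red circles are Rb/p53/p130 tumours, with tumour 12 open, blue open squares are normal lungs, and black lines are group means. In the upper panel the open red circle lies above the filled ones for Alb, Apoa2 and Cps1, and in the lower panel Car6 is high in tumour 11 alone.

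Against the same 2 lungs, 7058 genes (38.8%) were called in the Rb/p53 tumours, with 10 of these and 3 Rb/p53/p130 tumours. More arrays give more calls for changes of the same size, so the counts do not rank the genotypes. Because the comparisons share these lungs, they are given side by side only. The direct contrast of Rb/p53/p130 with Rb/p53 tumours tests the difference between them. It called 13 of 18193 genes (0.0715%), with 1321 at an unadjusted p under 0.05, and 1 of the 13, Jund, belonged to any of the 38 lists, that of immediate early genes. In the Rb/p53 tumours the mitosis and replication lists had medians of 4.21 and 2.88 above lung, against 4.30 and 3.20 in the Rb/p53/p130 tumours. The dense core granule medians were 4.05 in the Rb/p53/p130 tumours and 4.02 in the Rb/p53 tumours. At this number of arrays a gene with no call between genotypes is not shown to be alike in them. Vldlr, a lipoprotein receptor, had the most negative difference from lung among the 13: 6.38, 5.99 and 5.97 in the Rb/p53/p130 tumours, 6.73 to 7.88 (median 7.38) in the Rb/p53 tumours and 11.08 and 10.71 in the lungs, with -1.26 ± 0.20 between the genotypes (adjusted p = 0.0151, but -0.50 without probe sets of suffix _s, _x or _a).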

How the data were processed

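Total RNA of 3 Rb/p53/p130 tumours, 10 Rb/p53 tumours and 2 normal lungs was isolated with Trizol and amplified in a pair of rounds with a RiboAmp kit, per the labels' protocols. The labelled product was measured on Affymetrix arrays of the mouse genome. The authors' deposited values are log2 expression levels of 45101 probe sets, which the submitters' processing notes credit to RMA, with no version. RMA corrects the background, evens the arrays and combines the probes of a set. They ran from 3.11 to 15.20, with array medians of 6.58 to 6.68. A change common to most genes would therefore go unseen, and amplification favours the 3' end of transcripts.

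After 64 control probe sets were left out, 45037 were tested with limma 3.58.1 (lmFit, eBayes, R 4.3.3), all 15 arrays in 1 fit of 3 groups, with Benjamini-Hochberg adjustment and a threshold of 0.05. Of these, 34945 had 1 gene symbol in the probe table (34741 found by gene ID in RefSeq, GRCm38.p6), 932 had several and 9160 had none. Each gene was read from its brightest probe set, by the mean of 15 arrays. Of 9010 genes with several probe sets, 29 had calls in both directions. Samples were grouped by their labels, and no 2 arrays were identical.

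The members and the 38 lists (781 genes, 727 measured) were chosen with earlier results of these data known, and lists are described by counts and medians with no test. Genes were named by a rule: the targeted genes, a panel, the 10 highest and 10 lowest differences, up to 4 called members of each list and up to 3 that went against it, the 6 genes most spread among the tumours inside and outside the hepatocyte list, and up to 5 genes in each direction between genotypes. Other list members named are examples chosen after their values were seen.

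On simulated data with 50 genes changed at each size, the Rb/p53/p130 against lung contrast over 45037 probe sets recovered 6% of changes of 0.5, 46% of 1, 82% of 2 and 94% of 4 on the log2 scale. The noise was normally distributed and few probe sets changed, whereas 25.1% were called in the data. The adjusted threshold was thus stricter in the simulation, and these shares are not estimates for the data. Alternatives left out each array, fitted the 5 arrays alone, and changed the normalization, probe set rule, filter, prior, weights, covariates and threshold. The number of arrays limits the precision. Plots were made in Python 3.11.15 with matplotlib 3.10.9. Some genes, the p53 gene among them, were not analysed here.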

Additional observations from a re-analysis of the deposited data

Results flagged for a closer look

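In 9 named genes the level in Rb/p53/p130 tumours differed from that in Rb/p53 tumours by limma's direct contrast, which is the test of whether their changes against the shared lungs differ. All values are log2 differences, Rb/p53/p130 minus Rb/p53, and no explanation was tested. Gm10033 (1.5884), BC023105 (1.4398), Socs6 (0.6440) and Hltf (0.5583) were higher in the Rb/p53/p130 tumours. Malat1 (-1.5595), Mau2 (-1.3506), Vldlr (-1.2564), Zbtb7a (-1.1462) and Xrn2 (-1.1214) were lower. Malat1, Vldlr, Zbtb7a and Socs6 lost their call when probe sets of suffix _s, _x or _a were left out. Malat1, a nuclear noncoding RNA, read 10.77, 11.41 and 11.24 in the Rb/p53/p130 tumours, 11.92 to 13.35 (median 12.83) in the Rb/p53 tumours and 12.87 and 13.07 in the lungs. Socs6, an adaptor that restrains receptor kinases, read 8.78, 8.65 and 8.83 in the Rb/p53/p130 tumours, 7.93 to 8.22 (median 8.11) in the Rb/p53 tumours and 8.25 and 8.45 in the lungs. Hltf, a helicase-like factor of fork repair, read 10.01, 10.15 and 10.19 in the Rb/p53/p130 tumours, 9.30 to 9.74 (median 9.56) in the Rb/p53 tumours and 10.34 and 10.18 in the lungs. The Rb/p53/p130 tumours thus overlapped the lungs for Hltf, and the Rb/p53 tumours lay apart. Mau2, which loads cohesin, and Xrn2, a nuclear exonuclease, read 8.48, 8.37 and 8.41 and 8.95, 8.89 and 8.70 in the Rb/p53/p130 tumours, 9.34 to 10.13 (median 9.82) and 9.55 to 10.24 (median 9.98) in the Rb/p53 tumours, and 8.49 and 8.27 and 8.75 and 8.70 in the lungs. The genotypes were also taken at different times after infection, 6 against 8 to 12 months, so time and genotype cannot be told apart.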

How the results depend on the processing

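The counts of genes called in Rb/p53/p130 tumours against lung, 2775 higher and 2847 lower, were within 1.5 times of these values under most alternatives. With the Gapdh control difference as a covariate they were 531 and 409, and when a change over 1 was tested 617 and 745. Among probe sets above the median the lower count was 1831, where fewer genes were tested and the median difference of all genes moved to 0.135. Leaving out 1 array gave 1657 to 2394 higher and 1993 to 2468 lower calls, the 1657 without lung 1. Between tumour genotypes the 13 calls became 662 with array weights, 0 with a change over 1, 0 with the mean of probe sets, 1 without tumour 12 and the pair of Rb/p53 tumours highest in hepatocyte genes, and 3 to 15 without 1 array, with 3 when any Rb/p53/p130 tumour was left out. Apart from the change over 1 and the smaller numbers of arrays or genes, the causes were not tested. No paired analysis was possible because the lungs came from wild-type mice without tumours, so no tumour and lung shared an animal.

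Of 203 named genes, 28 changed the sign of their difference from lung under at least 1 alternative. No value with a changed sign had an adjusted p under 0.05 in limma, and the values are as follows. The ranges for leaving out 1 array also hold values that kept their sign, such as the called -2.27 for Fabp1 without tumour 12. With the Gapdh covariate the difference was -0.16 for Aif1, -0.12 for C1qb, -1.03 for C1qc, -0.062 for Cdk4, 1.10 for Chek2, -0.65 for Dcn, -0.77 for E2f5, -0.15 for E2f6, -0.18 for Fn1, 0.47 for Fos, -0.26 for Jag2, -0.29 for Mdm2, -0.70 for Nkx2-1, -0.67 for Pkm, 0.27 for Pou2f3, -0.036 for Rab3a, 0.11 for Sftpc, -0.42 for Slc18a2, -1.69 for Th, -0.53 for Upk3a and -0.11 for Vamp2. The actin covariate gave 0.24 for Chek2, -0.0017 for E2f5, -0.032 for Mdm2 and -0.17 for Nkx2-1. Array weights gave -0.0002 for Atr, 0.012 for Chek2 and 0.53 for Fabp1. The mean of probe sets gave -0.022 for Atr. A further quantile normalization gave -0.026 for Atr and -0.029 for Mdm2. Leaving out probe sets of suffix _s, _x or _a gave -0.36 for Ascl2, -0.26 for Cdk2 and -0.089 for Mdm2. Leaving out 1 array gave -0.20 to 0.29 for Atr, -0.44 to 0.26 for Chek2, -0.64 to 0.39 for Col1a1, -2.27 to 0.81 for Fabp1, -0.37 to 0.66 for Fanca, -0.034 to 0.099 for Mdm2 and -0.29 to 0.0043 for Nfib. The 9 differences between genotypes kept their sign under all alternatives run, but all 9 missed the threshold with a change over 1, with the mean of probe sets and without tumour 12 and that pair, and 6 or 7 of the 9 did so without a Rb/p53/p130 tumour. Without probe sets of suffix _s, _x or _a the call was lost for Malat1 (-0.56), Vldlr (-0.50), Zbtb7a (-0.22) and Socs6 (0.54), and the mean of probe sets moved Mau2 to -0.43, Xrn2 to -0.46, Zbtb7a to -0.49 and Vldlr to -0.68. Lists whose calls moved over 1.5 times without a tumour are named beside their counts. With 2 lungs and 3 tumours, changes near 1 were often missed in the simulation, where few genes changed, and genes at the floor have no order. The Gapdh difference runs alongside the groups, which limits what the fit with it can show.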

Other observations

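Genes of metabolism and growth that the comparison had not yet described moved in part. Of 19 hypoxia and glycolysis genes 9 were called higher and 1 lower in limma's fit, where 15.3% and 15.6% of all genes were. Egln3, a prolyl hydroxylase that marks hypoxia-inducible factor for decay and is itself induced by it, read 10.39, 10.57 and 9.32 in the Rb/p53/p130 tumours and 5.41 and 5.65 in the lungs, a 23.7-fold rise (adjusted p = 1.9e-06). Tumour 13 was the lowest of the 3 yet far above both lungs. Eno2, the neuron-specific enolase used as a serum marker of small cell lung cancer, rose by 2.12 ± 0.58, and the glycolytic enzymes Tpi1, Pkm and Ldha by 2.01 ± 0.16, 1.47 ± 0.43 and 1.31 ± 0.20, although Pkm turned to -0.67 with the Gapdh covariate. Hexokinase 2 (Hk2) fell (-1.50 ± 0.45). Ribosome biogenesis genes were called higher in 7 of 18 cases, led by the box C/D proteins Nop58 (2.22 ± 0.40) and Nop56 (1.81 ± 0.26), and oxidative phosphorylation genes in 8 of 20, with Sdhb at 1.10 ± 0.26. Without lung 1, 3 oxidative phosphorylation genes were called, and the hypoxia list gave no lower limma call without tumour 11, tumour 12 or either lung (2 at an unadjusted p under 0.05 with all arrays). These 3 lists gave 2, 1 and 0 higher limma calls with the Gapdh covariate (3, 4 and 3 at an unadjusted p under 0.05).

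Immediate early genes gave 5 lower calls among 19. Klf2, a factor of endothelial and lymphoid cells, was lower 11.5-fold and Klf4 differed by -2.58 ± 0.66, while Fos, Jun and Egr1 were not called. Adipocyte genes fell in 6 of 9 cases, with the hormone Adipoq lower at least 11.7-fold, and of 6 erythroid genes Alas2, of haem synthesis, and the anion exchanger Slc4a1 fell, with Alas2 at -3.88 ± 0.62 and Slc4a1 lower at least 2.11-fold. Without lung 2 the lower calls numbered 3 among adipocyte and 1 among erythroid genes, and without tumour 13 the adipocyte calls 3. Of 12 genes of MHC class I presentation, 2 were called higher (16.7%), near the 15.3% of all genes. They were H2-D1 (0.85 ± 0.27) and the chaperone Pdia3 (0.85 ± 0.28). Without lung 1 or any 1 tumour none was called (3 at an unadjusted p under 0.05 with all arrays). The probe sets of H2-D1 ran from 0.06 to 1.52, some called and others not, and the other of Pdia3 (0.45) was not called. Interferon genes gave 1 higher call, Ifit2 (0.98 ± 0.25, not called without lung 1), and 1 lower call, Gbp2 (-2.55 ± 0.54), among 17. The MHC class II genes had a median difference of -0.94 and 0 calls in limma, with 1 lower at an unadjusted p under 0.05.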
